A study of Rattus norvegicus with 8 samples.

Results

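Heat shock proteins and their partners were measured as transcripts in cultured rat heart muscle cells, across 42 genes that cover the cytosolic and the mitochondrial chaperone systems and the mitochondrial proteases. The rule goes by gene symbol, and each row of the expression table that carried one of the symbols was taken. The symbols and lists were chosen with earlier results of these data known. Their shares, set below beside those of all genes, are therefore descriptions and not tests. All 42 symbols were found, in 43 of the 21017 rows, because Hspa8 named a row on chromosome 8 and a further row on chromosome 5. By compartment there were 10 rows of the cytosolic HSP70 and HSP110 families, 1 of a microsomal HSP70, 2 of HSP90, 7 of small heat shock proteins, 8 of cytosolic J-domain proteins, 3 of co-chaperones, 2 of heat shock transcription factors, 5 of mitochondrial chaperones and 5 of mitochondrial proteases.

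The samples were neonatal cardiomyocytes from the heart of rats whose strain the labels give as SD. One group of 4 libraries was transfected with siECHS1, a small interfering RNA directed at Echs1, and the other group of 4 with siNC, the control; RNA was collected after 48 h in both. Echs1 encodes a mitochondrial enoyl-CoA hydratase of fatty acid and valine breakdown, and the comparison addressed how the transcriptome of the cells differs when it is knocked down. Levels are in FPKM, in which the fragments of a gene are scaled by its length and by the size of the library. Values given as mean ± SD have n = 4 libraries in each group. No label ties the libraries to separate cultures or litters, so each p-value measures the spread between these libraries only, which may be technical.

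Heat shock proteins keep other proteins folded. HSP70 binds exposed stretches of a client protein and releases them in a cycle of ATP use that J-domain proteins start and nucleotide exchange factors end, HSP90 takes over clients late in folding, and small heat shock proteins hold unfolded proteins without using ATP. Mitochondria have a set of their own, in which mortalin (Hspa9) draws proteins in and folds them, the Hspd1 and Hspe1 chaperonin encloses them, Trap1 is the HSP90, and ATP-driven proteases such as Lonp1 and ClpXP degrade what stays unfolded. In heart muscle the small heat shock proteins are abundant and guard the contractile apparatus, and the transcription factor HSF1 raises many of these genes after heat or other protein damage.

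Depth was even, with library totals of 16953309 to 18237111 reads. Echs1 itself measured 0.670, 0.444, 0.424 and 0.525 FPKM in siECHS1 libraries against 1.66, 1.35, 1.18 and 1.12 FPKM in siNC libraries, so the groups did not overlap (exact two-sided permutation p = 0.0286, the smallest that 4 against 4 allow). These Echs1 values rest on 18, 12, 11 and 14 reads in siECHS1 and on 45, 34, 30 and 29 in siNC. The row's mean over the 8 libraries lay under 1 FPKM, the filter used for the tests below. A further row with the same protein match, LOC100911186, averaged 3.38 ± 0.385 FPKM in siECHS1 and 6.61 ± 0.782 FPKM in siNC. How reads were divided between these rows is not known. Cardiomyocyte markers were strongly expressed in every library, and 13 of them summed to 9246 to 10188 FPKM in siECHS1 and 9259 to 9604 FPKM in siNC. Of the 13, Actc1 was higher in siECHS1 and Tnni3, Tnnc1, Myh6 and Ckm were lower. The 9 fibroblast markers summed to 4579.9 to 5123 FPKM in siECHS1 and 3641 to 3888 FPKM in siNC, with 6 higher and 1 lower. Col1a1 made up most of that sum, at 2768 ± 117 FPKM in siECHS1 and 2087 ± 90.9 FPKM in siNC. Col3a1, Dcn, Postn, Ddr2 and Fn1 were also higher, Lum was lower, and Pdgfra and Tcf21 did not pass. The 8 markers of smooth muscle cells and pericytes summed to 5152 to 5599 FPKM in siECHS1 and 5273 to 5489 FPKM in siNC, with 1 higher and 2 lower. The 7 endothelial markers summed to 40.9 to 44.0 FPKM in siECHS1 and 38.8 to 43.0 FPKM in siNC, and none passed. The 9 macrophage and leukocyte markers summed to 30.0 to 34.4 FPKM in siECHS1 and 31.0 to 32.1 FPKM in siNC, with Cd68 higher, Csf1r lower and the defining markers Ptprc and Adgre1 averaging no more than 0.0600 FPKM in either group. The part of these cell mixtures in the changes below was not tested, and in such bulk RNA fewer cells of a type and less RNA per cell cannot be told apart.

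Each row whose 8 libraries averaged 1 FPKM or more was tested, with limma on log2(FPKM + 1) and Benjamini-Hochberg adjustment over all 12616 rows tested; a change is called where the adjusted p is under 0.05. Of the 43 rows, 39 passed that filter, and Hspa1a, Hspa4l, Hsp90aa1 and Yme1l1 did not. Among the 39, 9 were higher in siECHS1 than in siNC, which is 23.1% against 8.83% of all genes tested, and 2 were lower, which is 5.13% against 12.2%. In either direction 11 were called, or 28.2%, against a background of 21.0%. The higher genes were Hspa8, Hspa14, Hspb6, Hspb7, Dnajb4, Dnajb5, Bag3, Hspa9 and Lonp1, and the lower ones were Dnajb1 and Trap1.

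The changes were small. In mean FPKM the called genes that were higher differed by 7.97% for Hspa8 at the least and by 25.2% for Dnajb4 at the most. The median log2 change of the 39 genes was 0.09, against -0.01 over all tested genes, and 29 of the 39 (74.4%) had a positive change, against 46.0% of all tested genes. The 4 values of each group did not overlap in 11 of the 39, or 28.2%, against 25.2% of all tested genes. Of the 39, 9 lay wholly higher in siECHS1 (23.1%, against 10.3% of all tested genes) and 2 wholly lower (5.13%, against 14.9%). All 43 rows together made up 1.07% ± 0.0069 of the summed FPKM in siECHS1 and 1.01% ± 0.0153 in siNC.

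**Figure D1:**
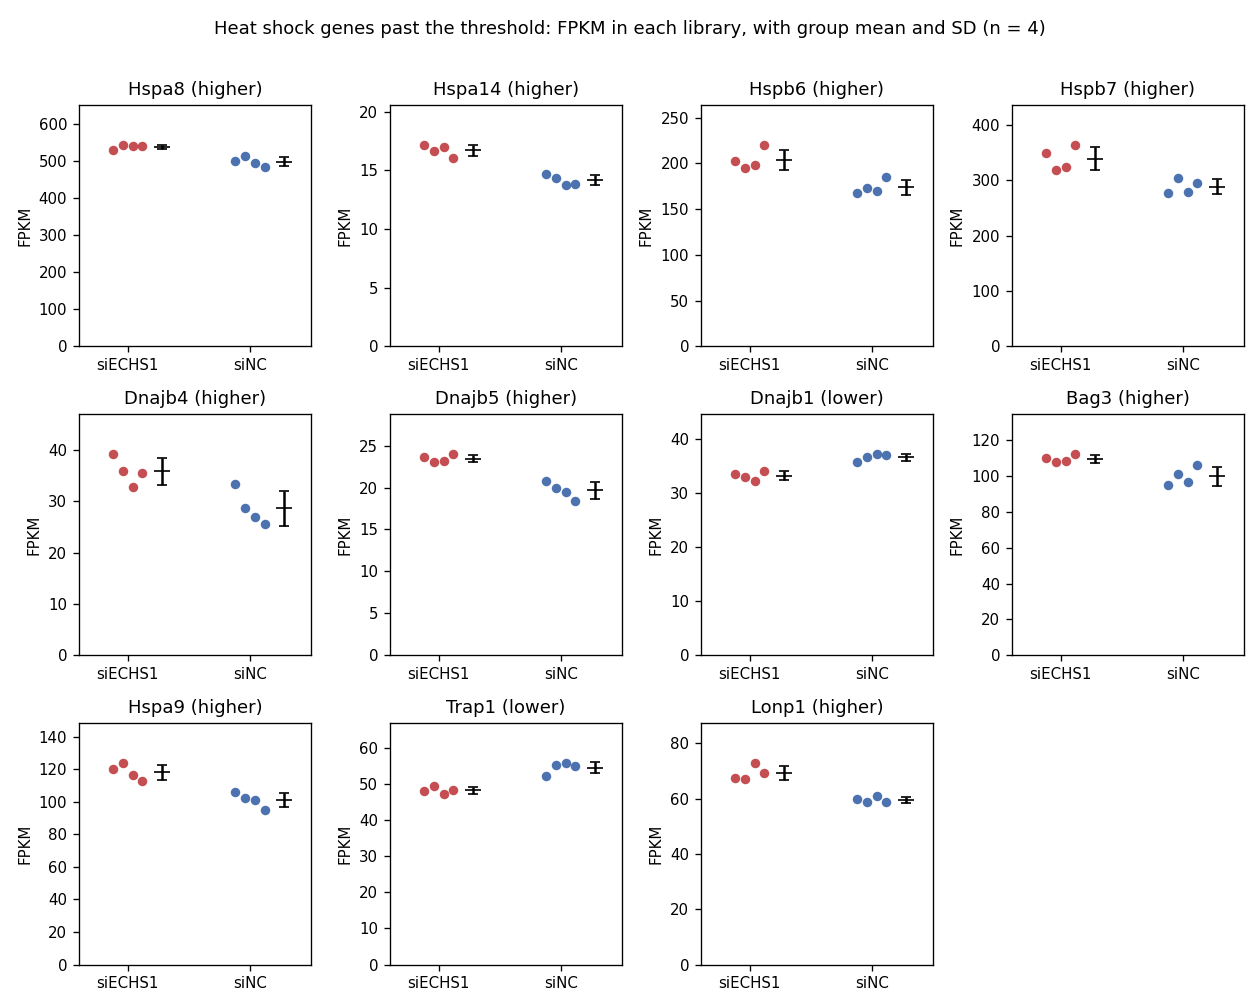
FPKM in each library (points) for the 11 heat shock genes past the threshold, siECHS1 left of siNC, with the group mean and SD (bar, n = 4) and every vertical axis starting at 0. The groups do not overlap for 10 of the genes, and for Dnajb4 one siECHS1 library lies below the highest siNC library.

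The levels spanned more than the changes did. Hspb1 was the most abundant, at 1254 ± 58.7 FPKM in siECHS1 and 1232 ± 73.3 FPKM in siNC, and its mean ranked 30 among all 21017 rows. Cryab, Hsp90ab1 and Hspa8 followed, each with a mean of at least 499 FPKM in both groups, then Hspb7, Hspb2, Hspe1, Hspb6, Hspd1, Hspa9 and Bag3. These 11 had a mean above 100 FPKM over the 8 libraries, which 6.67% of all tested genes reached. Lowest of the tested rows was that of the heat-inducible HSP70 gene Hspa1b, at 2.92 ± 0.229 FPKM in siECHS1 and 3.56 ± 0.412 FPKM in siNC. Its share of reads is uncertain, as given below.

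**Figure D2:**
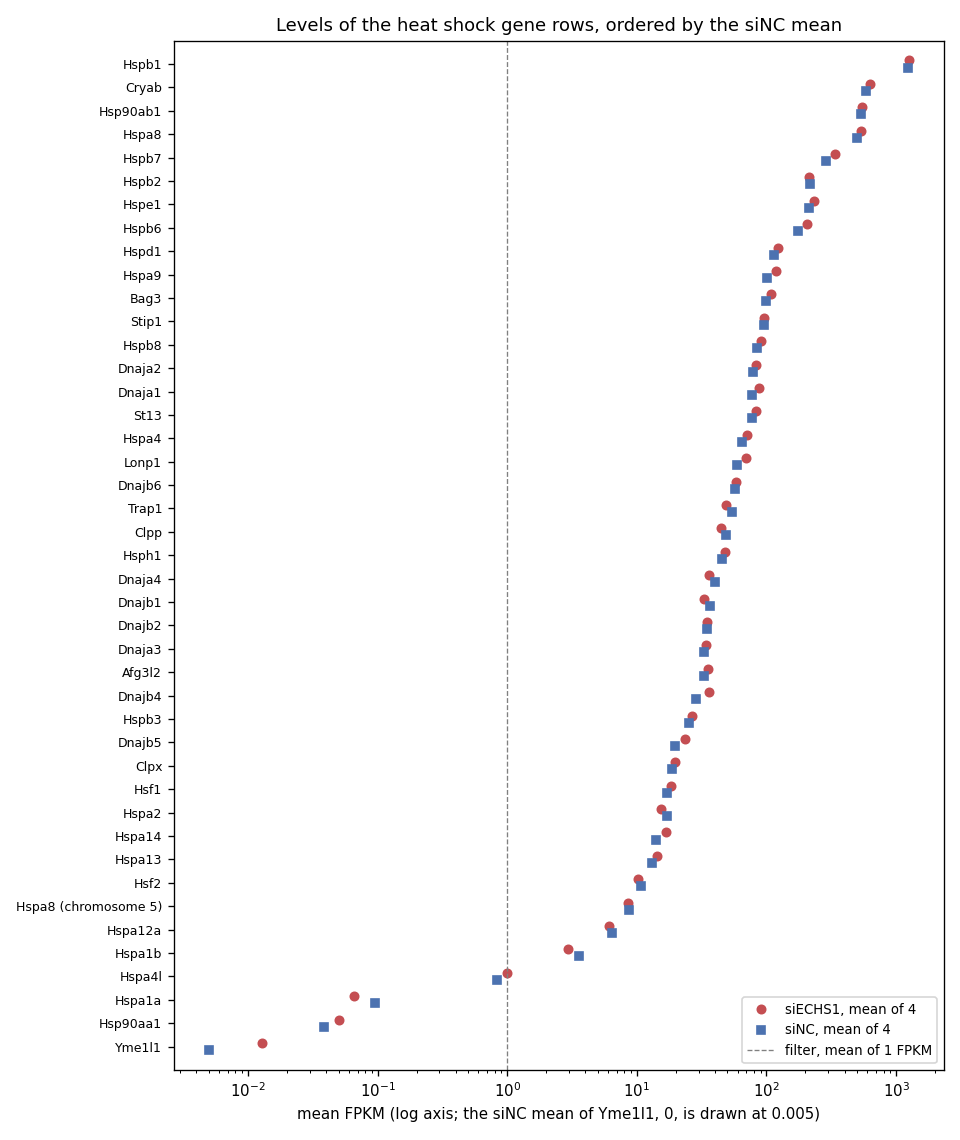
Mean FPKM (log axis) of the 43 heat shock gene rows, ordered by the siNC mean, with siECHS1 as circles above siNC as squares, and a dashed line at the filter of 1 FPKM. Hspb1 stands at the top at 1254 FPKM in siECHS1 and 1232 FPKM in siNC, and the rows named Hspa1a, Hsp90aa1 and Yme1l1 lie at or below 0.0955 FPKM in both groups.

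The 2 transcription factors did not pass the test. Hsf1, the main activator of the heat shock response, had 17.8, 17.3, 18.3 and 19.7 FPKM in siECHS1 against 16.9, 17.3, 16.9 and 16.8 FPKM in siNC, a log2 change of 0.10 (95% interval -0.00 to 0.20, adjusted p = 0.153). Hsf2, a related factor with roles in development, had 10.42, 11.01, 9.499 and 10.04 FPKM in siECHS1 against 10.71, 12.59, 10.05 and 9.495 FPKM in siNC (log2 change -0.05, adjusted p = 0.680). Both genes overlapped between the groups.

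Heat shock factors bind inverted repeats of GAA units, and such letters were looked for in promoter windows of 250 bases before to 50 bases after the gene start, from RefSeq (build GRCr8). Windows were found for 31 of the 42 genes; those not found were Hspa1b, Hspa12a, Hsp90aa1, Hspb2, Cryab, Dnaja2, Dnajb4, Hsf1, St13, Lonp1 and Clpx. The motifs were GAANNTTC and TTCNNGAA, each of which reads the same on both strands, and their extensions by a further unit, GAANNTTCNNGAA and TTCNNGAANNTTC, which contain both shorter ones. At least 1 of the shorter motifs stood in 16 of the 31 windows (51.6%), against 15.8% of all 33465 windows, and one of the longer ones in 5 of 31 (16.1%), against 0.798%. The genes with a longer match were Hspa8, Hsph1, Dnaja1, Hspd1 and Hspe1. The windows of Hspd1 and Hspe1 overlap and hold the same stretch, so both counts include that stretch for each of these genes. By outcome of the test, a shorter match was present in 4 of 7 genes that were higher, 1 of 2 that were lower and 10 of 19 that did not pass. The windows of Hspa14, Hspb7 and Dnajb5, which were higher, and of Trap1, which was lower, held no match. All windows printed below hold matches and do not represent the called genes. A match describes the letters only.

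Of the cytosolic HSP70 and HSP110 genes, 8 rows were tested, with a median log2 change of 0.04. In siECHS1 2 were higher and none lower, where 8.83% of all tested genes were higher and 12.2% lower. With so few rows, having none lower does not set the list apart. Hspa8, the constitutive HSC70 (ENSRNOG00000034066, chr8:44990014-44993179, plus strand, as the table lists it), had 529.7, 544, 542 and 541 FPKM in siECHS1 against 501, 514, 496 and 486 FPKM in siNC. Every siECHS1 library lay above every siNC library, on 75040 reads in siECHS1 and 67543 in siNC. The log2 change was 0.11 (SE 0.03, limma adjusted p = 0.0259). That call was lost without siECHS1 replicate 2 or 3 or siNC replicate 3 or 4, with adjusted p of 0.0601 to 0.0795, under quantile normalization, with 0.108, and without the variance trend, with 0.0654.

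Hspa8 has near-identical copies, and 7 other rows of the table share its protein match. Among them, LOC688655 averaged 45.1 ± 2.53 FPKM in siECHS1 and 43.7 ± 0.734 FPKM in siNC. LOC680121 averaged 43.5 ± 1.41 FPKM in siECHS1 and 45.4 ± 2.35 FPKM in siNC. AABR07033324.1 averaged 34.3 ± 2.93 FPKM in siECHS1 and 26.7 ± 3.02 FPKM in siNC. Because the sources used here do not say how the authors placed reads that fit several copies, the division of reads among these rows is uncertain. The row on chromosome 5 that also bears the name Hspa8 averaged 8.54 ± 0.416 FPKM in siECHS1 and 8.65 ± 0.195 FPKM in siNC (log2 change -0.02, adjusted p = 0.837).

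The Hspa8 promoter window is shown because it holds the longer motif at 2 places, one 213 bases and one 55 bases before the start. It is chr8:50080264-50080563 of GRCr8, plus strand, written 5′ to 3′, and the capitals mark the matches.
Hspa8: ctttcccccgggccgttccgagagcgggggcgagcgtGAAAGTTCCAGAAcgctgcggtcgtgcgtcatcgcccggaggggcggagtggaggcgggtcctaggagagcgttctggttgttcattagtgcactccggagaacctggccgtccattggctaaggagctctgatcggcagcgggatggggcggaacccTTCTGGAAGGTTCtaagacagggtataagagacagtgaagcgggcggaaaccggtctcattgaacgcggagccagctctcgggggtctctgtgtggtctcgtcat

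Hspa14, whose product works with HSP70 at the ribosome, had 17.1, 16.6, 17.0 and 16.0 FPKM in siECHS1 against 14.7, 14.4, 13.8 and 13.8 FPKM in siNC. The groups did not overlap, and the log2 change was 0.22 (SE 0.04, limma adjusted p = 0.00427). The row overlaps that of LOC102547897, with which it may share reads. Hspa4, an HSP110-type nucleotide exchange factor, had 74.3, 74.4, 68.0 and 68.7 FPKM in siECHS1 against 72.02, 62.7, 64.2 and 58.7 FPKM in siNC. It did not pass (log2 change 0.15, 95% interval 0.02 to 0.28, adjusted p = 0.106), and 1 siNC library lay within the siECHS1 range. Without that library, siNC replicate 1, the adjusted p was 0.0184. Hsph1, the HSP110 of heat-stressed cells, averaged 48.3 ± 2.05 FPKM in siECHS1 and 45.2 ± 1.55 FPKM in siNC (adjusted p = 0.138). Hspa2, an HSP70 best known from the testis, averaged 15.4 ± 0.596 FPKM in siECHS1 and 17.0 ± 1.14 FPKM in siNC (adjusted p = 0.121). Hspa12a, a distant member of the family, averaged 6.10 ± 0.138 FPKM in siECHS1 and 6.38 ± 0.177 FPKM in siNC (adjusted p = 0.459). These 3 genes had overlapping groups.

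The rows of the inducible HSP70 genes were at low level in both groups. Hspa1b had 3.01, 3.08, 2.58 and 3.01 FPKM in siECHS1 against 4.00, 3.00, 3.63 and 3.61 FPKM in siNC. Its log2 change was -0.22 (95% interval -0.40 to -0.03) and did not pass, with an adjusted p of 0.0891; the lowest siNC library lay among the siECHS1 values, and without it, siNC replicate 2, the change was -0.28 (adjusted p = 0.0392). Hspa1a had 10 reads in all siECHS1 libraries and 14 in all siNC libraries, with means of 0.0656 ± 0.0617 FPKM in siECHS1 and 0.0955 ± 0.0478 FPKM in siNC, and was not tested. Both rows have the same protein match, and the Hspa1b row overlaps 4 other rows. The split of reads, and with it the level of each of these genes, is uncertain. Hspa4l, a further HSP110-type gene, lay just under the filter, with 1.11, 0.992, 0.834 and 1.06 FPKM in siECHS1 against 1.08, 0.764, 0.826 and 0.671 FPKM in siNC, which overlap. Hspa13, whose product is an HSP70 core enclosed in microsomes, had 16.6, 14.6, 13.2 and 13.1 FPKM in siECHS1 against 14.5, 13.4, 13.2 and 11.7 FPKM in siNC (log2 change 0.11, adjusted p = 0.352), and its groups overlapped.

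Of HSP90, the constitutive Hsp90ab1 was measured with little spread, at 539.9, 553, 567 and 542 FPKM in siECHS1 against 542, 538, 534 and 541 FPKM in siNC. It did not pass, and the 95% interval of its log2 change of 0.03 ran from -0.03 to 0.10 (adjusted p = 0.505). The row named Hsp90aa1, the inducible form, held 8 reads in siECHS1 and 6 in siNC, at 0.0502, 0.0747, 0.0260 and 0.0505 FPKM in siECHS1 against 0.0747, 0.0268, 0.0265 and 0.0260 FPKM in siNC. That row lies within Dync1h1, the dynein heavy chain gene of the opposite strand, which averaged 35.7 ± 5.11 FPKM in siECHS1 and 34.7 ± 2.04 FPKM in siNC. The library kit does not mark strand, and the sources used here do not say how reads in overlapping genes were handled; the level of Hsp90aa1 cannot be read from this row.

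**Figure D3:**
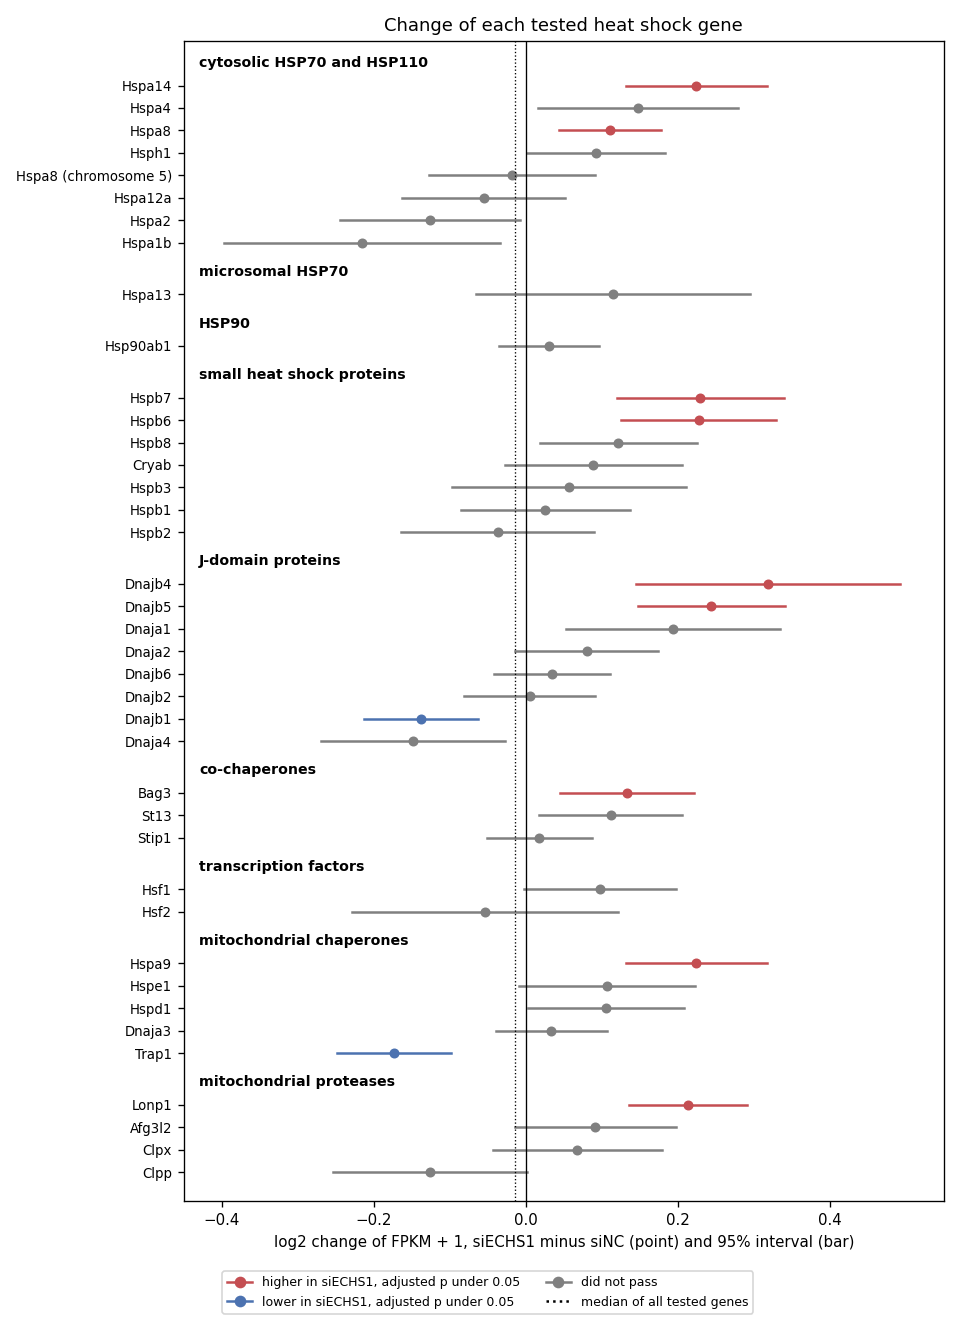
Log2 change of FPKM + 1, siECHS1 minus siNC (horizontal axis), with its 95% interval for the 39 tested heat shock genes by compartment, coloured by the limma call. Called changes run from -0.17 for Trap1 to 0.32 for Dnajb4, and the dotted line is the median of all tested genes, -0.01.

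Of the 8 J-domain genes tested, 2 were higher in siECHS1, 1 was lower and 5 did not pass, with a median log2 change of 0.06. Over all tested genes 8.83% were higher and 12.2% lower, so 1 lower gene of 8 is near the share of all genes. Dnajb4, a partner of HSP70 also known as HLJ1, had 39.1, 35.9, 32.8 and 35.4 FPKM in siECHS1 against 33.3, 28.7, 26.9 and 25.5 FPKM in siNC. Its log2 change of 0.32 was the largest of the called heat shock genes (SE 0.08, limma adjusted p = 0.0165), although 3 of 4 siECHS1 libraries, not all, lay above the highest siNC library. Dnajb5, its closest relative here, had 23.7, 23.1, 23.1 and 23.9 FPKM in siECHS1 against 20.8, 19.96, 19.5 and 18.3 FPKM in siNC, without overlap (log2 change 0.24, SE 0.04, limma adjusted p = 0.00349).

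Dnajb1, the HSP40 that works with HSP70 in refolding and in protein disaggregation, was the gene that fell. It had 33.5, 33.0, 32.3 and 34.2 FPKM in siECHS1 against 35.8, 36.7, 37.2 and 37.1 FPKM in siNC. The siECHS1 values lay below every siNC value, and the log2 change was -0.14 (SE 0.03, limma adjusted p = 0.0163). The gene is at chr19:24747178-24750919 in the table, plus strand. Its promoter window is shown as that of the J-domain gene that fell. It holds a shorter motif 11 bases before the start and a further one after it. The window is chr19:41431092-41431391 of GRCr8, minus strand, with the matches in capitals.
Dnajb1: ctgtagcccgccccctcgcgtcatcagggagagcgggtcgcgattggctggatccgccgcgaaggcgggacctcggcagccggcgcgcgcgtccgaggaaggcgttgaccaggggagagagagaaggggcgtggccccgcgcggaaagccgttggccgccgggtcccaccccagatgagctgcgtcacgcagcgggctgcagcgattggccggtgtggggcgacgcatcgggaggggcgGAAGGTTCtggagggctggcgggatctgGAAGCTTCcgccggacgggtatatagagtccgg

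The other 5 J-domain genes did not pass. Dnaja1, a farnesylated partner of HSP70, had 93.9, 90.0, 81.4 and 87.4 FPKM in siECHS1 against 84.4, 78.9, 76.7 and 68.4 FPKM in siNC. Its adjusted p was 0.0540 (log2 change 0.19, 95% interval 0.05 to 0.33), just outside the threshold, and it passed under 6 of 16 alternative settings. Dnaja2, of the same class, had 83.3, 87.9, 78.3 and 82.4 FPKM in siECHS1 against 78.5, 77.1, 82.7 and 75.5 FPKM in siNC (adjusted p = 0.215). Both overlapped between the groups. Dnaja4, the third of the class, averaged 36.0 ± 2.93 FPKM in siECHS1 and 39.9 ± 1.28 FPKM in siNC (adjusted p = 0.0797). Without siECHS1 replicate 2 it passed, with a log2 change of -0.20 (adjusted p = 0.0184). Dnajb2, known from neurons, averaged 34.7 ± 0.592 FPKM in siECHS1 and 34.5 ± 1.51 FPKM in siNC (adjusted p = 0.945). Dnajb6, which keeps aggregation-prone proteins soluble and is mutated in a limb-girdle muscular dystrophy, averaged 58.2 ± 1.75 FPKM in siECHS1 and 56.8 ± 1.30 FPKM in siNC (adjusted p = 0.524).

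Among the co-chaperones Bag3, an HSP70 exchange factor that joins HSP70 to small heat shock proteins and to autophagy in muscle, was higher. It had 109.9, 107, 108 and 112 FPKM in siECHS1 against 94.7, 101, 96.5 and 106 FPKM in siNC, without overlap. The log2 change was 0.13 (SE 0.04, limma adjusted p = 0.0373), and the call was lost under 9 of 16 alternatives, with adjusted p up to 0.101. These included leaving out any 1 of the siECHS1 libraries or siNC replicate 1, 2 or 3. St13, which stabilises HSP70 with its client, had 81.7, 81.6, 86.3 and 82.5 FPKM in siECHS1 against 80.3, 78.2, 78.0 and 70.8 FPKM in siNC; its groups did not overlap, but its adjusted p was 0.0893. Stip1, which links HSP70 to HSP90, had 92.6, 96.7, 97.1 and 98.5 FPKM in siECHS1 against 96.7, 93.3, 94.8 and 95.1 FPKM in siNC (adjusted p = 0.730), and its groups overlapped.

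All 7 small heat shock protein genes were tested. In siECHS1 2 were higher and none lower, where 8.83% of all tested genes were higher and 12.2% lower. With so few genes, having none lower does not set the list apart. Their median log2 change was 0.09. Their summed level was 2752 ± 147 FPKM in siECHS1 and 2609 ± 134 FPKM in siNC. Hspb6 (HSP20, a muscle-rich protein phosphorylated by protein kinase A; chr1:89008117-89010256) had 202, 195, 198 and 219.7 FPKM in siECHS1 against 168, 172, 169.9 and 185 FPKM in siNC. The groups did not overlap, and the log2 change was 0.23 (SE 0.05, limma adjusted p = 0.00657). Hspb7 (the cardiovascular heat shock protein, found at the sarcomere; chr5:159967839-159971562) had 349, 319.6, 324 and 363 FPKM in siECHS1 against 276, 304, 279 and 295 FPKM in siNC. Its groups did not overlap either, with a log2 change of 0.23 (SE 0.05, limma adjusted p = 0.00886).

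The Hspb6 promoter window is shown as that of a small heat shock gene that was higher. It holds shorter motifs 239 and 149 bases before the start and none of the longer ones. The window of Hspb7, which was also higher, holds no match. It is chr1:94934122-94934421 of GRCr8, plus strand, with the matches in capitals.
Hspb6: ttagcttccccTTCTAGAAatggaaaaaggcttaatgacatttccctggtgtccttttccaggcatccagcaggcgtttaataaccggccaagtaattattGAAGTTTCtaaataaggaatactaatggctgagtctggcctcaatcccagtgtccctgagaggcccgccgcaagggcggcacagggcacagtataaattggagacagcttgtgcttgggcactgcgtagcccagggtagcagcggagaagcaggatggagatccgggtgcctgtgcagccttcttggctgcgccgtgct

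The other 5 small heat shock genes did not pass, among them the most abundant, Hspb1 and Cryab. Hspb1 (HSP27, which binds actin filaments) had 1223, 1238, 1213 and 1340.2 FPKM in siECHS1 against 1157, 1292, 1181 and 1297 FPKM in siNC, and the 95% interval of its log2 change of 0.03 ran from -0.09 to 0.14. Under quantile normalization Hspb1 was called, with a log2 change of 0.08 (adjusted p = 0.0196). Cryab (alpha-B crystallin, which binds desmin and titin) had 607, 619, 586 and 688 FPKM in siECHS1 against 559.8, 606, 569 and 612 FPKM in siNC (log2 change 0.09, adjusted p = 0.259). Both genes had groups that overlapped, with an SE of 0.05 each, as for Hspb6 and Hspb7. Hspb2, a muscle form that binds the myotonic dystrophy kinase, averaged 213 ± 14.1 FPKM in siECHS1 and 218 ± 14.9 FPKM in siNC (adjusted p = 0.698). Hspb3, which forms complexes with it, averaged 26.6 ± 2.65 FPKM in siECHS1 and 25.4 ± 1.499 FPKM in siNC (adjusted p = 0.610). Hspb8, the partner of Bag3 in selective autophagy, had 86.8, 91.7, 91.8 and 95.04 FPKM in siECHS1 against 81.5, 91.6, 82.3 and 80.4 FPKM in siNC (adjusted p = 0.0909). Its single high siNC library, replicate 2, lay within the siECHS1 range, and without it the adjusted p was 0.0219.

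Relative to Hspb1 in the same library, Hspb6 stood at 0.162 ± 0.00363 in siECHS1 and 0.141 ± 0.00525 in siNC, as a ratio of FPKM. The same ratio for Hspb7 was 0.270 ± 0.0114 in siECHS1 and 0.235 ± 0.00481 in siNC. Neither ratio overlapped between the groups. As Hspb6 and Hspb7 were called and Hspb1 was not, these ratios restate the calls and add no further evidence. Hspb2 and Cryab lie head to head on chromosome 8 with 470 bases between them in the table. Their ratio, Hspb2 over Cryab, was 0.341 ± 0.00715 in siECHS1 and 0.372 ± 0.0118 in siNC, also without overlap. Neither gene was called, and the ratio of this chosen pair was not tested or set beside those of other gene pairs.

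Within siECHS1, replicate 4 had the highest level of all 7 small heat shock genes, from 106.8% of the siNC mean for Hspb2 to 126.4% for Hspb6. Its summed cardiomyocyte markers stood at 108.5% of the siNC mean, against 98.5% to 103.3% in the other siECHS1 libraries. Without replicate 4, Hspb6 had a log2 change of 0.19 (limma adjusted p = 0.00927) and Hspb7 one of 0.20 (limma adjusted p = 0.0156).

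**Figure D4:**
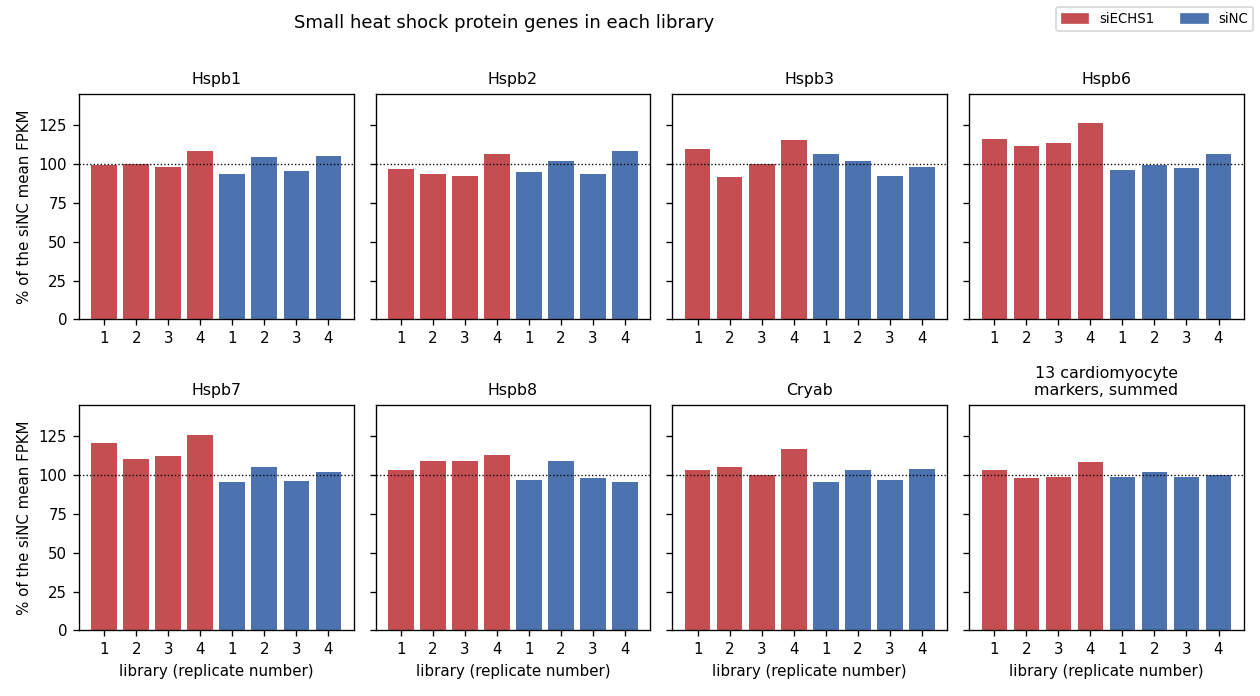
FPKM of the 7 small heat shock protein genes and of 13 summed cardiomyocyte markers in each library, as a percentage of the siNC mean (bars, siECHS1 libraries left of siNC libraries, dotted line at 100). In all 8 panels the fourth siECHS1 library is the highest of its group, and only for Hspb6 and Hspb7 do all siECHS1 bars exceed all siNC bars.

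Of the 5 mitochondrial chaperone genes tested, Hspa9 was higher, Trap1 was lower and 3 did not pass, where 8.83% of all tested genes were higher and 12.2% lower. Their summed level, to which Hspe1 contributed most, was 554.5 ± 19.0 FPKM in siECHS1 and 518 ± 10.2 FPKM in siNC. Hspa9, mortalin (ENSRNOG00000019525, chr18:27731072-27749235, minus strand), had 119.98, 123, 116 and 113 FPKM in siECHS1 against 106, 102, 101 and 95.01 FPKM in siNC. All siECHS1 libraries lay above all siNC libraries, with a log2 change of 0.22 (SE 0.04, limma adjusted p = 0.00424). Trap1, the mitochondrial HSP90 (chr10:11724032-11757681), had 48.1, 49.7, 47.2 and 48.3 FPKM in siECHS1 against 52.4, 55.3, 55.8 and 55.1 FPKM in siNC. Here all siECHS1 libraries lay below all siNC libraries, with a log2 change of -0.17 (SE 0.03, limma adjusted p = 0.00541). As a ratio of FPKM, Hspa9 over Trap1 was 2.44 ± 0.0768 in siECHS1 and 1.85 ± 0.124 in siNC, which restates their opposite calls. The ratio of Hspa9 to Hspd1 was 0.958 ± 0.0192 in siECHS1 and 0.882 ± 0.0361 in siNC, and overlapped between the groups. The calls of Hspa9 and Trap1 held under all 16 alternatives.

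The Hspa9 promoter window is shown as that of the mitochondrial chaperone that was higher. It holds a shorter motif 84 bases before the start and one after the start, and no longer motif. It is chr18:26828349-26828648 of GRCr8, minus strand, with the matches in capitals.
Hspa9: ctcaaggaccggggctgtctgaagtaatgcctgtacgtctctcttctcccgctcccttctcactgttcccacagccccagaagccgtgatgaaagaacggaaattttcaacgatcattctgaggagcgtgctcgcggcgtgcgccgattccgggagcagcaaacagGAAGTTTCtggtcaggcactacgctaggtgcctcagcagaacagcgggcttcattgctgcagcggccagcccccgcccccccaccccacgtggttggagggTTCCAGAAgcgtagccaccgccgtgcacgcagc

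The chaperonin genes Hspd1 (HSP60) and Hspe1 (HSP10), whose products form the folding chamber, did not pass. Hspd1 had 129, 127, 121 and 116 FPKM in siECHS1 against 119.5, 119.9, 108 and 111 FPKM in siNC (log2 change 0.11, 95% interval 0.00 to 0.21, adjusted p = 0.135). Hspe1 had 220.1, 247, 215 and 241 FPKM in siECHS1 against 204, 213, 229 and 211 FPKM in siNC (log2 change 0.11, adjusted p = 0.179), and 1 processed pseudogene row shares its protein match. Both overlapped between the groups. The pair kept the same proportion, with Hspe1 over Hspd1 at 1.88 ± 0.164 in siECHS1 and 1.88 ± 0.179 in siNC. Dnaja3, the J-domain protein of the matrix, averaged 34.0 ± 0.716 FPKM in siECHS1 and 33.2 ± 0.508 FPKM in siNC (adjusted p = 0.516).

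Hspd1 and Hspe1 are transcribed away from each other, and their starts lie 290 bases apart in GRCr8, so their windows share 211 bases. In the table's coordinates 1197 bases lie between the 2 genes, so the shared stretch depends on the RefSeq starts. The Hspe1 window is shown because it holds the longer motif at 2 overlapping places, the first beginning 65 bases before the Hspe1 start, in the stretch that both windows share. It is chr9:64084077-64084376 of GRCr8, plus strand, with the run of matches in capitals.
Hspe1: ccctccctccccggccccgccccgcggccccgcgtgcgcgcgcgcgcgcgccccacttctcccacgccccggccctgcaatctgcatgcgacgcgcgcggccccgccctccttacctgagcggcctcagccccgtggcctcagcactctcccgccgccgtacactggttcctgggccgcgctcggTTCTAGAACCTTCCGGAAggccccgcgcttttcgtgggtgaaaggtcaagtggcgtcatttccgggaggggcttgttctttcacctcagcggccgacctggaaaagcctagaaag

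Of the mitochondrial proteases, 4 were tested and Lonp1 alone passed, where 8.83% of all tested genes were higher and 12.2% lower. Lonp1, the matrix protease that removes oxidised and unfolded proteins (chr9:10428853-10441177), had 67.5, 67.2, 72.7 and 69.2 FPKM in siECHS1 against 59.9, 58.7, 60.8 and 58.6 FPKM in siNC. The groups were well apart, with a log2 change of 0.21 (SE 0.04, limma adjusted p = 0.00211). Clpp, the proteolytic chamber of the ClpXP protease, had 45.8, 41.5, 42.6 and 47.8 FPKM in siECHS1 against 45.1, 47.3, 49.0 and 52.9 FPKM in siNC, which overlap (log2 change -0.13, 95% interval -0.25 to 0.00, adjusted p = 0.148). As a ratio of FPKM, Lonp1 over Clpp was 1.56 ± 0.121 in siECHS1 and 1.23 ± 0.0904 in siNC. Clpx, the unfolding subunit, averaged 19.6 ± 0.344 FPKM in siECHS1 and 18.7 ± 1.30 FPKM in siNC (adjusted p = 0.377). Afg3l2, a protease of the inner membrane that faces the matrix, averaged 35.2 ± 1.49 FPKM in siECHS1 and 33.0 ± 1.84 FPKM in siNC (adjusted p = 0.206). Both of these overlapped between the groups. The row named Yme1l1, the inner membrane protease that faces the intermembrane space, held 2 reads in siECHS1 and 0 in siNC, and LOC108348078, which shares its protein match, averaged 0.201 ± 0.0856 FPKM in siECHS1 and 0.254 ± 0.0579 FPKM in siNC. As the division of reads between these rows is not known, the level of Yme1l1 cannot be read from this row.

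Set side by side, 2 of the 9 tested mitochondrial genes were higher and 1 lower, and 7 of the 29 tested cytosolic genes were higher and 1 lower, against 8.83% higher and 12.2% lower over all tested genes. The 1 lower mitochondrial gene of 9 is near that share. The median log2 change was 0.09 in the mitochondrial genes and 0.08 in the cytosolic ones. The difference between the compartments was not tested. Summed FPKM of the mitochondrial genes was 723 ± 16.2 in siECHS1 and 677 ± 10.6 in siNC, and of the cytosolic genes 4721 ± 141 in siECHS1 and 4478 ± 122 in siNC.

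Other genes of the same pathways were taken as lists. Of 22 tested genes of the cytosolic chaperone network, 2 were higher and 3 lower, which is near the 8.83% and 12.2% of all tested genes. Fkbp5, a prolyl isomerase of HSP90 complexes, averaged 6.21 ± 0.461 FPKM in siECHS1 and 5.03 ± 0.217 FPKM in siNC. Bag2, an HSP70 exchange factor, averaged 32.7 ± 1.28 FPKM in siECHS1 and 28.3 ± 0.812 FPKM in siNC. Both lay higher in every siECHS1 library than in any siNC library. Unc45b, the HSP90 co-chaperone that folds muscle myosin, averaged 61.5 ± 1.252 FPKM in siECHS1 and 68.7 ± 3.12 FPKM in siNC. Unc45a, its general form, averaged 30.2 ± 1.38 FPKM in siECHS1 and 35.8 ± 1.48 FPKM in siNC. Bag6, which captures mislocalised membrane proteins, averaged 107 ± 2.08 FPKM in siECHS1 and 119 ± 4.29 FPKM in siNC. These 3 lay lower in every siECHS1 library than in any siNC library.

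Of the 14 tested genes of the cytosolic chaperonin TRiC and prefoldin, 1 was higher and none lower, against the same 8.83% and 12.2%. Pfdn4, a prefoldin subunit, averaged 34.8 ± 1.89 FPKM in siECHS1 and 30.0 ± 1.63 FPKM in siNC. Of 15 further genes listed under mitochondrial import and quality control, 1 was higher and 1 lower, again near those shares. Dnajc19, of the inner membrane, averaged 5.30 ± 0.597 FPKM in siECHS1 and 6.81 ± 0.157 FPKM in siNC. Lonp2, a Lon protease of peroxisomes, averaged 26.1 ± 0.655 FPKM in siECHS1 and 23.9 ± 0.881 FPKM in siNC (limma adjusted p = 0.0463), and its call held under 6 of 16 alternatives, with adjusted p up to 0.108. As Lonp2 acts in peroxisomes, no gene of that list with a mitochondrial product was called higher. Atf5, a transcription factor tied to the mitochondrial unfolded protein response, averaged 82.1 ± 5.37 FPKM in siECHS1 and 81.5 ± 3.10 FPKM in siNC and did not pass (adjusted p = 0.920).

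Among the endoplasmic reticulum chaperones 12 of 15 were higher and none lower, against 8.83% and 12.2% of all tested genes, with a median log2 change of 0.21 against 0.09 in the heat shock genes. Of these 12 calls 8 held under all 16 alternatives, while Dnajb9 was called under 9, Pdia6 under 10, Dnajc10 under 11 and Sdf2l1 under 12. Hspa5 (BiP), their HSP70, averaged 355.6 ± 2.38 FPKM in siECHS1 and 249.8 ± 5.79 FPKM in siNC, a log2 change of 0.51 (SE 0.03, limma adjusted p = 6.13e-06), against 0.11 for Hspa8 in the cytosol and 0.22 for Hspa9 in mitochondria. Hsp90b1, their HSP90, had a log2 change of 0.43 (SE 0.05), against 0.03 for Hsp90ab1 and -0.17 for Trap1. These differences between genes were not tested, and all come from the same 8 libraries.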

How the data were processed

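RNA from 4 siECHS1 and 4 siNC libraries was measured at 48 h. Per the labels' protocols, libraries were made from 1 µg of total RNA with a TruSeq kit that does not mark strand. The table the authors deposited holds an FPKM value for each rat gene in each library. Bowtie 0.12.2 and the builds Rnor_6.0 and mm8 are named, per the submitters' processing notes, with no role stated. The table's header names no build, and the sources used here give neither the counting tool nor the handling of reads that fit several places; copies and overlapping genes may share reads.

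Rows with a mean of at least 1 FPKM (12616 of 21017) were compared on log2(FPKM + 1) in R 4.3.3 by limma 3.58.1 (trended variance, two-sided), adjusted over all tested rows at a threshold of 0.05. A log2 change on this scale understates the change of low genes. Fold is a ratio of mean FPKM. Low values stepped in whole reads, so the reads behind the FPKM were inferred. For each gene a length was chosen that made its values whole. That 100% of 144519 values above 0 counted as whole within 0.01 of a read follows from this choice and is no check. The inferred reads in listed genes made up 99.9% of each library total. limma's voom on these reads, a count test chosen after seeing the data, called 13 heat shock genes higher and 2 lower, and 1422 and 1463 of all genes. The other alternatives were 2 scalings, another pseudocount, 2 filters, a fit without the trend, a replicate block and leaving out each library. The scripts were tested on simulated data.

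Each of the 42 genes is named with the value of its row, which for Hsp90aa1 and Yme1l1 is not read as the gene's level. Genes past the threshold, and the 2 highest of each compartment, have their value in every library. The genes, compartments and lists were chosen with earlier results of these data known. No row carried the symbols of the listed markers Ttn, Col1a2 and Pecam1, so these were not analysed here. Python 3.11.15 with pandas 2.3.3 was used for the tables and matplotlib 3.10.9 for the plots.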

Additional observations from a re-analysis of the deposited data

Results flagged for a closer look

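In 4 of 78 combinations of a group and a tested heat shock gene, 1 library stood apart from the other 3 by Dixon's criterion, which chance meets in about 5% of groups. Hspa1b measured 2.583 FPKM in siECHS1 replicate 3, below the 3.01 to 3.08 FPKM of the other siECHS1 libraries. Dnajb2 measured 33.77 FPKM in siECHS1 replicate 2, below the 34.9 to 35.0 FPKM of the others. Hspb8 measured 91.56 FPKM in siNC replicate 2, above the 80.4 to 82.3 FPKM of the other siNC libraries. Dnajb6 measured 54.81 FPKM in siNC replicate 4, below the 57.3 to 57.6 FPKM of the others. None of these 4 genes passed the test, and of the 4, Hspb8 alone was called without its outlying library (adjusted p = 0.0219).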

How the results depend on the processing

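Of the 11 calls, 9 held under all 16 alternatives: Hspa14, Hspb6, Hspb7, Dnajb1, Dnajb4, Dnajb5, Hspa9, Trap1 and Lonp1. The call of Hspa8 was lost under 6 and that of Bag3 under 9. The number of heat shock genes higher in siECHS1 was 11 under median-of-ratios scaling, 9 under quantile normalization and with a pseudocount of 0.1 FPKM, 8 without the filter, 10 with a filter of 5 FPKM, 7 without the variance trend, and 7 to 10 when 1 library was left out; 2 were lower, or 2 to 3 with a library left out. Under median-of-ratios scaling their median log2 change was 0.11, and the co-chaperones' summed FPKM differed by 20.6 in place of 17.1. With 1 library left out the median ranged from 0.0630 to 0.0885. Changes that turned in sign with a library left out were those of Hspa8 on chromosome 5 (-0.0402 to 0.00888), Hspb1 (-0.00663 to 0.0514), Hspb2 (-0.0812 to 0.00420), Dnajb2 (-0.0166 to 0.0324) and Hsf2 (-0.104 to 0.0202), none of them called in these fits. For Echs1 the change was -0.66 to -0.55 with a library left out, where 3 against 4 libraries allow no p under 0.0571. Same-numbered libraries deviated together only weakly over all tested genes (r of 0.17, -0.05, 0.01 and 0.07 for numbers 1 to 4), so the main fit did not pair them. The second principal component, with 13.7% of the variance, nevertheless ran in the order of the numbers in both groups. For numbers 1 to 4 it was 7.39, 1.77, -2.02 and -10.3 in siECHS1 and 10.7, 0.62, -1.29 and -6.88 in siNC. Same-numbered libraries may thus share something, and what that is was not tested. With the replicate block 12 heat shock genes were higher and 2 lower, and 2952 of all genes were called in place of 2655. Groups of 4 limit the intervals, whose median SE was 0.05 on the log2 scale. Changes of about that size were not detectable with these libraries, and larger ones could be missed too. Log2 changes of 0.19 for Dnaja1 (limma adjusted p = 0.0540) and 0.15 for Hspa4 (limma adjusted p = 0.106) were not called. A gene that did not pass is therefore not shown to be unchanged.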
